A study of Macaca fascicularis with 3 samples.

Results

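The HOX cluster genes encode homeodomain transcription factors that give cells of the embryo their position along the head-to-tail axis. They lie in the clusters HOXA, HOXB, HOXC and HOXD, and are numbered from the end of the cluster that is switched on first and acts nearest the head (low numbers, here called anterior) to the end that is switched on last and acts nearest the tail (high numbers, here called posterior). Retinoic acid induces the low-numbered genes, CDX factors and the PBX and MEIS cofactors act with them, and Polycomb and trithorax complexes keep them off or on. In mouse primordial germ cells the mesodermal Hox genes are repressed early, while fetal gonadal somatic cells keep the HOX genes of the trunk.

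HOX levels were measured in cynomolgus monkey germ cells and in the mouse somatic cells cultured with them. Members were all features whose symbol is HOX, a cluster letter and a number, with antisense transcripts left out. This gave 38 of the 26017 features (11 HOXA, 10 HOXB, 9 HOXC and 8 HOXD). HOXD12, the only other gene of the usual mammalian set of 39, was not among the feature symbols. All 38 members were matched in RefSeq, and 18 had a gene model overlapping that of another member, among them HOXA3 with HOXA4, HOXA5 and HOXA6, and HOXC4 with HOXC5, HOXC6 and HOXC10. Their counts could be split between neighbours, so differences between such neighbours are uncertain.

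The germ cells were derived from 15XRi-AGVT#7, an embryonic stem cell line (genotype wildtype, labelled as early oogonia, a single line), which carries TFAP2C-EGFP (AG) and DDX4-tdTomato (VT) as reporters of earlier and later germ cells. They were grown in xenogeneic reconstituted ovaries, aggregates with mouse ovarian somatic cells of embryonic day E13.5, E14.5 or E15.5, and all carry the age label ag49+52. Germ cells positive for either reporter and mouse cells negative for both were sorted apart, mixed again and run as 1 Chromium 3' library per mouse stage, so nothing below measures the spread between repeats of one stage, and shares of cell types were set by the mixing. Values are unique molecular identifier (UMI) counts of summed barcodes scaled to counts per 1000000 UMIs (CPM), which for end-counted transcripts carry no gene length, and values per library follow the order E13.5, E14.5 and E15.5.

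Germ barcodes were those with 2 to 20% of UMIs in the 13 mitochondrially encoded genes and at least 10000 UMIs, which gave 537, 536 and 1113 barcodes with 31364271, 24342943 and 57505722 UMIs. Mouse somatic barcodes were those under 1% with at least 1000 UMIs, which gave 1643, 717 and 1739 barcodes with 11642304, 5548443 and 11387916 UMIs. Germ barcodes fell into 4 groups by 3 genes that are not HOX genes: POU5F1-high (at least 500 CPM of this pluripotency factor of early germ cells; 56, 123 and 217 barcodes), STRA8-positive (at least 50 CPM and 2 UMIs of this retinoic acid-induced gene of meiotic entry; 139, 88 and 273), SYCE3-high (the top 5% for this synaptonemal complex gene; 27, 27 and 56) and ungated, under all gates (315, 297 and 566). The defining genes matched the labels: DAZL, an RNA-binding protein of germ cells, was at 417, 311 and 354 CPM in germ barcodes and 9.62, 12.4 and 16.5 CPM in mouse barcodes, and INHA, the inhibin subunit of supporting cells, at 12.8, 23.0 and 16.5 and 1750.4, 1478 and 1306 CPM. The early markers TFAP2C and NANOG were highest in the POU5F1-high sums (108 to 142 and 277 to 316 CPM) and SYCP3, of the synaptonemal complex, in the SYCE3-high sums (1152 to 1664 CPM).

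Barcode sequences recurred between libraries. There were 686 sequences in more than 1 library, 184 of them in all 3, and in no pair of libraries was a sequence a germ barcode in both. Among sequences that were germ in 1 library of a pair, the copy with fewer UMIs held a median of 1.06 to 1.98% of the other copy's UMIs. They made up 267, 58 and 344 of the germ barcodes. The results below are therefore given with these barcodes and, where a count rests on them, without them.

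**Figure D1:**
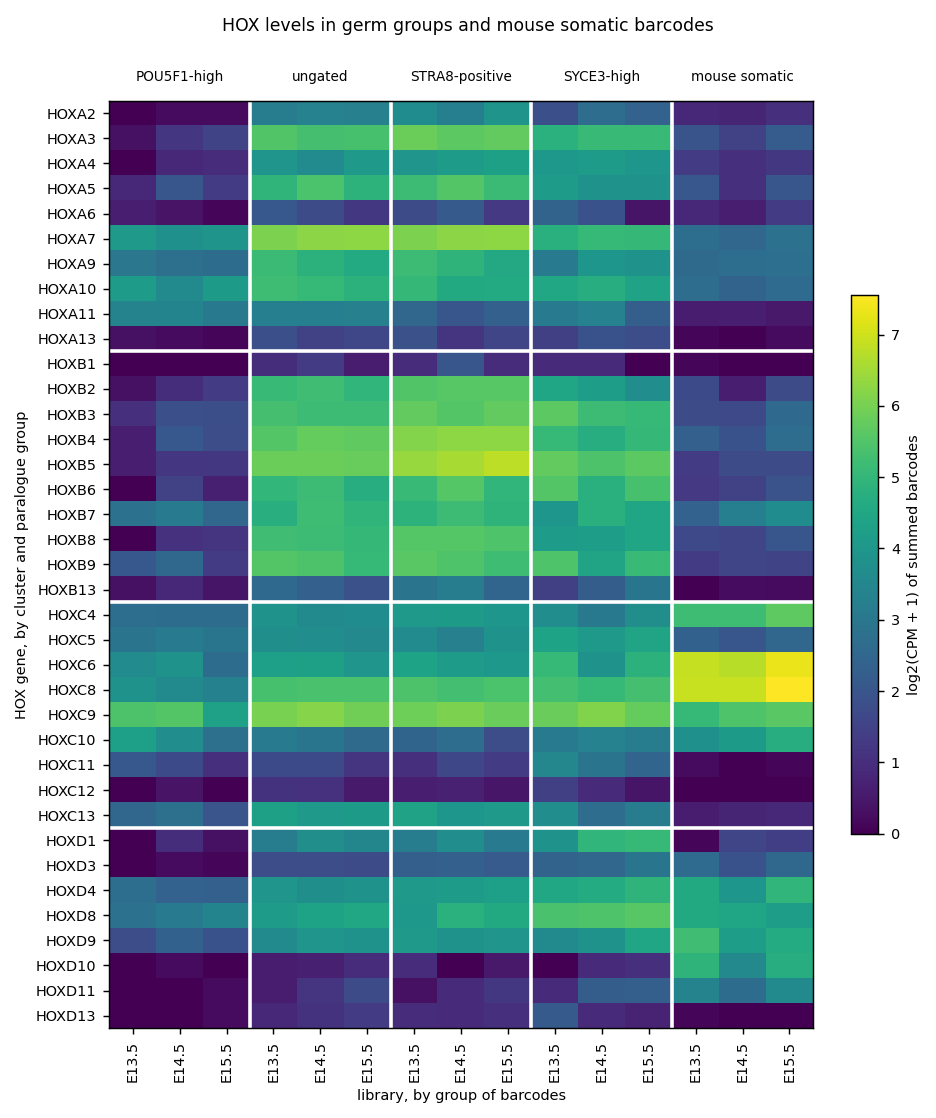
Level of HOX genes (rows, by cluster and paralogue group; white lines divide the clusters) in the summed barcodes of each library (columns, in the 4 germ groups and the mouse somatic barcodes), as log2(CPM + 1) on the colour scale. The HOXA and HOXB rows of low number are dark in the POU5F1-high columns, where HOXB5 stayed at or under 1.35 CPM, and bright in the ungated ones, whereas HOXC6 and HOXC8 are the brightest rows of the mouse columns.

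Over all germ barcodes the 38 genes together made up 711 ± 49.3 CPM (SD, n = 3 libraries). The HOXB cluster contributed 39.7, 38.5 and 39.2% of these UMIs, HOXA 31.4, 30.4 and 31.2%, HOXC 22.0, 23.0 and 20.6% and HOXD 6.89, 8.197 and 8.97%. The 5 most abundant were HOXA7 (58.3, 56.8 and 60.8 CPM), HOXC9 (60.4, 63.9 and 49.9), HOXB5 (56.4, 46.6 and 56.2), HOXB4 (45.6, 42.3 and 45.8) and HOXA3 (41.4, 30.7 and 34.6). HOXC9 overlapped both HOXA7 and HOXB5 over the libraries, so its place among them is not set beyond the spread between libraries, and HOXA3 overlapped the next gene, HOXC8 (37.2, 32.5 and 34.5). At the other end HOXB1, HOXC12, HOXD10 and HOXD13 stayed under 2 CPM in every germ library. Without the recurring barcodes the summed level was 609 CPM.

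HOX levels differed between the POU5F1-high and the ungated germ cells. The summed HOX level was 184, 190.5 and 138 CPM in POU5F1-high and 819, 848 and 771 CPM in ungated sums, with no overlap. Of the 38 members, 34 passed the filter on low counts and 29 of these were higher in ungated cells by edgeR's quasi-likelihood test with Benjamini-Hochberg adjustment, against 35.4% of all 15338 genes tested. The number was 29 without the recurring barcodes as well. A difference of at least 2-fold upward was called for 25 members (20.1% of all genes). HOXA11 and HOXC10 were lower (2 members, against 33.4% of all genes), HOXC10 by at least 2-fold (12% of all genes). The median log2 fold change was 2.47 over the HOX genes and 0.043 over all genes.

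HOXA2 and HOXB5 showed the largest fitted log2 fold changes of the HOX genes, followed by HOXB8 and HOXB6. HOXA2, which patterns the second pharyngeal arch, was at 0, 0.161 and 0.169 CPM in POU5F1-high and 8.03, 9.09 and 8.80 CPM in ungated sums. HOXB5, a gene of the lower neck and gut, was at 0.540, 1.29 and 1.35 and 57.3, 56.4 and 54.2 CPM. HOXB4, known from blood stem cells, was at 0.540, 3.23 and 2.45 and 45.3, 53.3 and 50.9 CPM. In all 3 genes every ungated sum was above every POU5F1-high sum by far more than the libraries differed. The log2 fold changes were 5.39 ± 0.44 (SE) for HOXA2 (edgeR adjusted p = 3.21e-09), 5.05 ± 0.20 for HOXB5 (edgeR adjusted p = 1.87e-13) and 3.90 ± 0.19 for HOXB4 (edgeR adjusted p = 1.72e-12). The HOXA2 value rests on 3 UMIs over the POU5F1-high sums, and the ratio of summed CPM was 62.5 with a counting interval from 21.3 to 304.

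In HOXA, HOXA3 to HOXA5 rose by factors similar to that of HOXB4. HOXA3, required for thymus and parathyroid, was at 0.270, 1.29 and 1.95 CPM in POU5F1-high and 44.1, 39.4 and 39.9 CPM in ungated sums (log2 fold change 4.28 ± 0.21). HOXA4 was at 0, 0.807 and 0.931 and 14.4, 11.6 and 15.7 CPM (3.76 ± 0.30). In both of them all ungated sums lay above 10 CPM and all POU5F1-high sums under 2 CPM. HOXA5, required for the lung, was at 0.809, 3.06 and 1.52 and 30.01, 41.4 and 28.3 CPM (3.60 ± 0.19). HOXA6 was low in both, at 0.540, 0.323 and 0.0846 and 3.20, 2.40 and 1.34 CPM (2.53 ± 0.53). HOXA5 thus resembled its anterior neighbours in level and in change, while HOXA6 was called from few counts.

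Further along HOXA the difference shrank gene by gene until it turned. HOXA7 was at 15.9, 12.7 and 14.0 CPM in POU5F1-high and 65.5, 74.6 and 75.9 CPM in ungated sums, a log2 fold change of 1.86 ± 0.10. HOXA9, a driver of some leukaemias, was at 7.01, 5.97 and 5.33 and 34.3, 27.8 and 23.4 CPM (1.68 ± 0.16). HOXA10, needed in the uterus, was at 17.0, 10.97 and 16.4 and 35.8, 32.6 and 28.0 CPM (0.56 ± 0.13). These 3 were at 5 CPM or more in each POU5F1-high sum, unlike the anterior genes, and still did not overlap with the ungated sums. HOXA11, another gene of uterus, limb and kidney, was at 9.44, 9.68 and 7.36 and 8.55, 8.58 and 8.76 CPM (-0.52 ± 0.18), and these CPM overlapped. The call on HOXA11 (edgeR adjusted p = 0.0182) depended on scaling: with library sizes alone the log2 fold change was 0.0023, and with the POU5F1 gate at 1000 CPM it was 0.21. HOXA13, the most posterior HOXA gene, broke the order, at 0.270, 0.161 and 0.0846 and 2.57, 1.82 and 2.02 CPM (3.28 ± 0.55). Its POU5F1-high value rests on 3 UMIs, and the ratio of summed CPM was 15.53 with a counting interval from 5.20 to 76.2.

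In HOXB all 9 members tested rose. HOXB2, of the hindbrain, was at 0.270, 0.968 and 1.52 CPM in POU5F1-high and 33.5, 36.6 and 30.4 CPM in ungated sums (4.32 ± 0.23). HOXB3 was at 1.08, 2.58 and 2.54 and 39.4, 34.8 and 34.9 CPM (3.44 ± 0.19). HOXB6 was at 0, 1.77 and 0.593 and 31.2, 35.4 and 24.9 CPM (4.60 ± 0.31). The POU5F1-high sums of these genes stayed under 3 CPM. HOXB8 was at 0, 1.13 and 1.19 and 36.6, 34.9 and 31.5 CPM (4.60 ± 0.24). HOXB9, whose gene model overlaps that of HOXB8, was at 3.24, 4.84 and 1.52 and 45.2, 42.8 and 32.1 CPM (3.22 ± 0.22). HOXB7 stood apart from its neighbours with 6.20, 7.42 and 4.66 and 26.4, 35.6 and 29.8 CPM (1.88 ± 0.14), the smallest change of the cluster. It had the highest POU5F1-high level of the cluster in every library. HOXB13, a gene of the prostate and the far posterior, was at 0.270, 0.807 and 0.339 and 4.98, 3.93 and 2.67 CPM (2.41 ± 0.47). HOXB1, which did not pass the filter on low counts, had no UMI in the POU5F1-high cells, where 3 UMIs correspond to 0.809, 0.484 and 0.254 CPM, and was at 0.997, 1.53 and 0.514 CPM in the ungated sums.

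HOXC changed least, with 4 of 8 tested members higher and 1 lower. HOXC8, which directs motor neuron identity in the lower neck, was at 13.49, 10.97 and 9.06 CPM in POU5F1-high and 39.6, 40.9 and 40.9 CPM in ungated sums (1.41 ± 0.12). HOXC13, required for hair, was at 4.59, 5.97 and 2.96 and 18.6, 15.8 and 16.4 CPM (1.45 ± 0.20). HOXC9, a thoracic gene, was at 42.6, 45.3 and 19.1 and 64.8, 71.7 and 59.5 CPM (0.46 ± 0.15, edgeR adjusted p = 0.0121), the highest HOX gene of the POU5F1-high cells in every library. In HOXC9 the POU5F1-high sum of E15.5 was lower than the others, and without that library the log2 fold change was 0.12 (edgeR adjusted p = 0.371). HOXC4 was at 5.67, 5.32 and 5.33 and 13.3, 11.3 and 11.7 CPM (0.63 ± 0.16). HOXC5 and HOXC6 were not called, at log2 fold changes of 0.25 ± 0.17 and 0.32 ± 0.21. HOXC10, a lumbar gene, was the only member lower by at least 2-fold in ungated cells, at 18.3, 12.1 and 5.84 CPM in POU5F1-high and 7.501, 6.69 and 5.17 CPM in ungated sums (-1.28 ± 0.20, edgeR adjusted p = 1.91e-05). It was lower in each library, but the E15.5 POU5F1-high sum lay within the ungated range. HOXC11 was at 3.24, 2.26 and 1.02 and 2.26, 2.26 and 1.23 CPM (-0.58 ± 0.34, not called).

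All 6 HOXD members tested rose. HOXD1 was at 0, 0.968 and 0.254 CPM in POU5F1-high and 8.13, 12.3 and 10.00 CPM in ungated sums (4.09 ± 0.39). HOXD3 was at 0, 0.161 and 0.0846 and 2.47, 2.47 and 2.33 CPM, a ratio of summed CPM of 26.1 with a counting interval from 7.10 to 217. HOXD4 was at 5.67, 4.19 and 3.98 and 14.2, 12.6 and 13.8 CPM (1.12 ± 0.17). The anterior HOXD1 and HOXD3 were thus nearly undetected in POU5F1-high cells, and HOXD4 was not. HOXD8 and HOXD9, of the trunk, changed by 0.78 ± 0.14 and 1.59 ± 0.22, HOXD9 from 2.43, 4.03 and 2.71 to 11.1, 14.2 and 13.8 CPM. HOXD11, of the forelimb and kidney, was at 0, 0 and 0.169 and 0.525, 1.24 and 2.40 CPM, a ratio of summed CPM of 17.0 with a counting interval from 4.58 to 142.

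**Figure D2:**
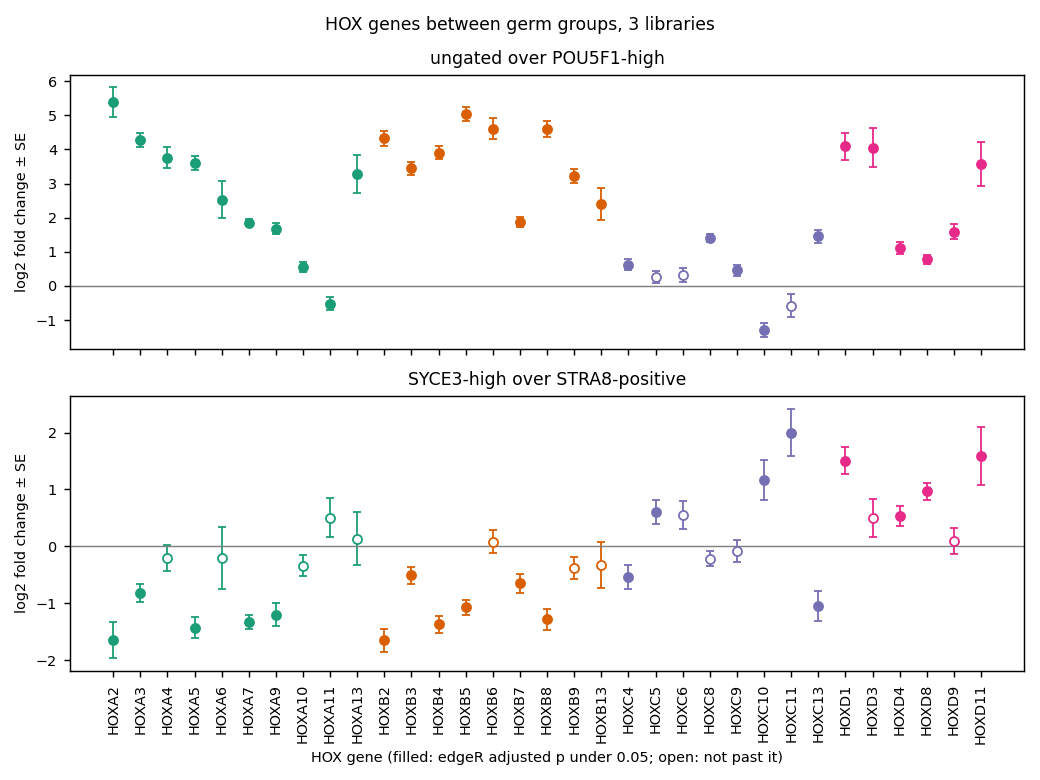
Log2 fold change with its standard error for HOX genes tested, by cluster (colours) and position, for ungated over POU5F1-high cells and SYCE3-high over STRA8-positive cells. Filled points passed an adjusted p of 0.05 by edgeR. In the upper panel the values fall along HOXA from 5.39 at HOXA2 to -0.52 at HOXA11, stay high over HOXB and lie near 0 in most of HOXC, and in the lower panel HOXA and HOXB points lie mostly under 0 and HOXD points above it.

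By position, the median log2 fold change was 3.90 for paralogue groups 1 to 4, 1.88 for groups 5 to 8 and 1.52 for groups 9 to 13. By cluster it was 3.28 for HOXA, 3.90 for HOXB, 0.39 for HOXC and 2.59 for HOXD. These medians describe the members tested, and the differences between clusters and positions were not tested. Of the 31 members called, 27 kept their call and direction under every alternative that tested them. HOXA11, HOXC4, HOXC9 and HOXC10 lost their call under at least 1 alternative. Members that the filter on low counts removed in an alternative were not counted as lost. Thinning each barcode to 10000 UMIs left 30 members tested, of which 24 were higher and 0 lower. The POU5F1-high sums had lower scaling factors (0.695 to 0.786) than the other groups (1.03 to 1.17). With library sizes alone the median of all genes was 0.56 instead of 0.043, and 31 HOX genes rose (HOXC5 and HOXC6 among them) and 1 fell, the split over all genes going from 5432 up and 5121 down to 9293 up and 2344 down.

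In POU5F1-high cells, 18 members were at or under 12.9% of their ungated level in every library. This is the largest share of a germ cell gene's germ level seen in mouse barcodes (SYCE3 in E14.5), and in E13.5 the largest was 2.64% (DDX4). The background of the POU5F1-high barcodes themselves was not measured, so this share does not show whether such values are expression or background. Among the 18 were HOXA2 to HOXA5, HOXA13, HOXB1 to HOXB6, HOXB8, HOXB9, HOXD1, HOXD3, HOXD11 and HOXD13. The other 20 were above that share in at least 1 library, and included HOXA7, HOXA9, HOXA10, HOXA11, HOXB7 and all 9 HOXC genes. Summed markers of other cell types moved between these groups in both directions. The 10 supporting cell markers were at 24.8, 44.0 and 17.1 CPM in POU5F1-high and 120.4, 164 and 147 CPM in ungated sums, the 10 stromal markers at 15.1, 49.4 and 29.4 and 95.7, 98.8 and 112 CPM, and the 6 mesothelial markers found at 37.2, 47.4 and 45.3 and 216, 275 and 188 CPM. The 10 epithelial markers went the other way, at 203, 239 and 221 and 112, 109.6 and 90.6 CPM, as did the 7 endothelial markers, at 48.0, 51.9 and 52.1 and 14.0, 11.9 and 16.5 CPM. Both of these lists were above their level in mouse barcodes (20.1 to 86.7 and 3.60 to 9.57 CPM) in each POU5F1-high sum. Of the 29 members higher in ungated cells, 21 were lower in mouse barcodes than in ungated sums in all 3 libraries (HOXB5 at 1.46 to 2.37 CPM in mouse barcodes, for example). HOXC4, HOXC8, HOXD3, HOXD4, HOXD9 and HOXD11 were higher in mouse barcodes in each library, with HOXC8 at 119 to 187 CPM, and HOXA6 and HOXD8 were in neither class. The part of mouse RNA in these differences was not tested. The count of 29 was the same after the 5% of germ barcodes with the most RNA of the supporting, stromal and mesothelial markers were left out of each library. The mesothelial markers were at 164, 150 and 352 CPM in mouse barcodes, under their ungated level in E13.5 and E14.5. That ranking therefore does not follow mouse RNA alone, and the unchanged count does not measure its part.

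Single barcodes showed the same division. With each barcode thinned to 10000 UMIs, the median number of HOX genes with a UMI was 1, 1 and 1 in POU5F1-high cells, 6, 6 and 6 in ungated cells, 8, 8 and 7 in STRA8-positive cells and 6, 4 and 6 in SYCE3-high cells. Unthinned medians were 5.5, 4 and 3 in POU5F1-high and 18, 16 and 16 in ungated cells, although the POU5F1-high barcodes were the deeper ones (medians of 67488, 47997 and 51592 UMIs against 57308, 44026 and 47768.5). The HOXA and HOXB genes of groups 1 to 6 had no UMI in 49 of 56, 102 of 123 and 160 of 217 POU5F1-high barcodes, and in 9 of 315, 10 of 297 and 29 of 566 ungated ones. Those UMIs were unevenly spread, with 14 of 16, 80 of 103 and 87 of 172 in the 5 POU5F1-high barcodes that held most. Among ungated barcodes the top 5 held 425 of 6225, 364 of 4682 and 429 of 9045. The set of groups 1 to 6 in HOXA and HOXB is not one of the position groups used above. It leaves out HOXA7 and HOXB7, at means of 14.2 and 6.09 CPM in POU5F1-high sums, and also HOXB8, at 0.771 CPM. The number of barcodes with no UMI depends on this choice of genes.

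The summed level of the HOXA and HOXB genes of groups 1 to 6 fell stepwise with the POU5F1 level of the barcode. This is the same set, without HOXA7 and HOXB7, so its low end depends on the choice of genes as well. STRA8-positive and SYCE3-high barcodes were left out here, so that 371, 421 and 784 barcodes remained (POU5F1-high, ungated and 2 over several gates). The sum was 374, 386 and 364 CPM in barcodes with no POU5F1 UMI and 108, 154.9 and 119 CPM at 50 to 200 CPM of POU5F1. It was 18.7, 62.8 and 40.3 CPM at 500 to 1000 and 0.344, 9.18 and 4.57 CPM at 1000 CPM or more. In every library each step down in HOX level followed a step up in POU5F1. The 200 to 500 bin held 15, 15 and 34 barcodes and the 500 to 1000 bin 13, 16 and 57, so these bins are thin in E13.5 and E14.5.

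HOXA11 and HOXC10 did not follow this course. HOXA11 was at 5.50, 4.91 and 4.85 CPM with no POU5F1, at 28.4, 26.7 and 26.05 CPM at 200 to 500 CPM of POU5F1 and at 6.89, 6.18 and 4.57 CPM at 1000 CPM or more. HOXC10 was at 3.53, 4.46 and 3.40, 25.8, 32.3 and 9.94 and 19.6, 11.2 and 5.16 CPM in these bins. HOXA11 was thus highest at intermediate POU5F1 (between 50 and 1000 CPM) in every library. The 95% counting interval of HOXC10 at 200 to 500 CPM of POU5F1 lay above that with no POU5F1 in every library. HOXC9 was at 69.4, 70.7 and 60.6 CPM with no POU5F1 and 43.7, 44.6 and 17.8 CPM at 1000 CPM or more, so it persisted at the highest POU5F1 levels, least in E15.5.

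**Figure D3:**
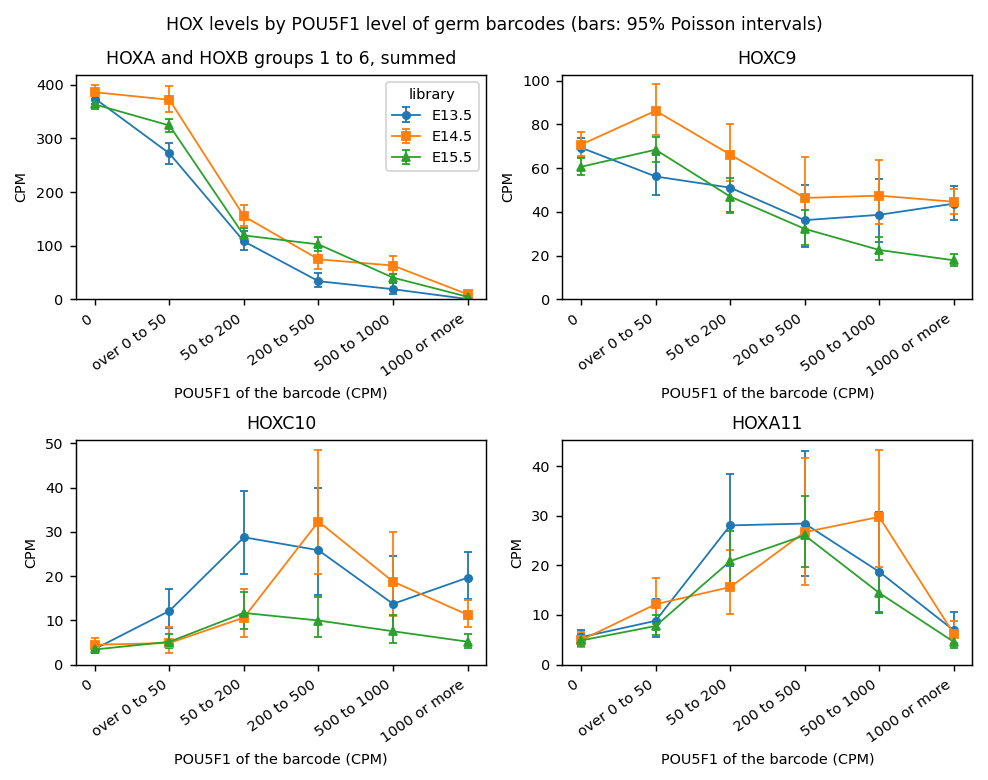
HOX levels (CPM of summed barcodes, y axes) by the POU5F1 level of the germ barcode (x axes, 6 bins) in each library, STRA8-positive and SYCE3-high barcodes left out, with 95% Poisson intervals that cover counting error only. The sum of HOXA and HOXB groups 1 to 6 falls over the bins from 364 CPM or more to 9.18 CPM or less, HOXC9 falls less, and HOXA11 peaks in the middle bins.

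STRA8-positive cells differed little from ungated cells in HOX level. Of the 34 members tested, 5 were higher by edgeR with Benjamini-Hochberg adjustment, against 2.65% of all genes, and 2 were lower, against 4.62%. Among the 5 were HOXB5, HOXB4, HOXB3 and HOXB2. HOXB5 was at 82.5, 93.4 and 109.7 CPM in STRA8-positive sums, above its 54.2 to 57.3 CPM in ungated ones, with a log2 fold change of 0.74 ± 0.10 (edgeR adjusted p = 0.000169). HOXB2, HOXB3 and HOXB4 had log2 fold changes of 0.44, 0.45 and 0.55, and their CPM did not overlap between the groups. HOXA11 was at 4.58, 3.06 and 3.98 CPM in STRA8-positive sums against 8.55 to 8.76 CPM, lower by at least 2-fold (-1.11 ± 0.20, edgeR adjusted p = 0.00289; 1.04% of all genes passed that rule). HOXC10 was lower as well (-0.80 ± 0.24, edgeR adjusted p = 0.0491), with overlapping CPM.

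Only HOXB5 kept its call under all alternatives run for this comparison. Without E15.5, 1 gene was higher and the calls downward were lost, when 8 HOX genes had an unadjusted p under 0.05 by edgeR; without E13.5 the numbers were 3 and 1. Without the recurring barcodes 7 were higher and 1 lower. DESeq2 called 3 higher and 1 lower. This comparison shares the ungated sums with the one before, so the values are given side by side and are not independent of each other.

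SYCE3-high cells, the furthest along in meiotic prophase by their markers, had fewer HOXA and HOXB transcripts than STRA8-positive cells and more HOXD transcripts. By edgeR with Benjamini-Hochberg adjustment, 14 HOX genes were lower (27.7% of all genes were) and 7 higher (26.8% of all genes), 10 of the 14 by at least 2-fold (11.3% of all genes) and 4 of the 7 (12.9%). The count of higher genes is thus near the share in all genes, and that of lower genes above it. Those that fell were 6 HOXA, 6 HOXB and 2 HOXC genes, and those that rose were 3 HOXC and 4 HOXD genes. Without the recurring barcodes 11 were lower and 1 was higher, and without E15.5 12 and 3. Of the genes that rose, only HOXD1 kept its call under every alternative that tested it, so the rise in HOXD is less firm than the fall in HOXA and HOXB.

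Among the genes that fell, HOXB2 was at 44.0, 46.8 and 47.0 CPM in STRA8-positive and 20.6, 17.5 and 11.9 CPM in SYCE3-high sums (-1.65 ± 0.20, edgeR adjusted p = 1.27e-06). HOXA2 was at 11.8, 8.57 and 14.0 and 2.57, 5.52 and 4.20 CPM (-1.65 ± 0.32). HOXA5 was at 35.5, 45.3 and 34.8 and 17.2, 13.8 and 13.7 CPM (-1.43 ± 0.19). In these genes each SYCE3-high sum lay under every STRA8-positive sum. HOXB4 was at 70.7, 76.8 and 75.6 and 32.6, 24.9 and 31.9 CPM (-1.37 ± 0.16). HOXA7 was at 66.2, 74.1 and 75.4 and 26.6, 32.2 and 31.5 CPM (-1.33 ± 0.12, edgeR adjusted p = 4.08e-08), the smallest adjusted p of any member here. HOXB8 was at 45.8, 46.5 and 43.7 and 17.2, 17.5 and 21.4 CPM (-1.28 ± 0.18). The levels of HOXA7 and HOXB8 in SYCE3-high cells remained above those in POU5F1-high cells in every library.

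HOXA9 was at 35.4, 29.4 and 22.5 CPM in STRA8-positive and 7.72, 14.7 and 13.7 CPM in SYCE3-high sums (-1.20 ± 0.21). HOXB5 was at 82.5, 93.4 and 109.7 and 52.3, 42.3 and 49.4 CPM (-1.07 ± 0.13). These also did not overlap. HOXC13 was at 19.2, 14.7 and 16.1 and 12.01, 5.52 and 8.05 CPM (-1.04 ± 0.26). HOXA3, HOXB3, HOXB7 and HOXC4 fell by less than 2-fold (log2 fold changes of -0.82 to -0.51), HOXB3 with overlapping CPM. HOXA3 stayed among the more abundant members, at 27.5, 33.1 and 32.9 CPM in SYCE3-high sums.

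Of the 7 genes that rose, HOXD1 was at 8.21, 11.9 and 7.66 CPM in STRA8-positive and 13.7, 30.4 and 32.6 CPM in SYCE3-high sums (1.51 ± 0.24, edgeR adjusted p = 3.65e-05). HOXD8 was at 15.3, 27.2 and 23.3 and 40.3, 43.3 and 47.6 CPM (0.97 ± 0.15). HOXC11 was at 1.08, 2.14 and 1.55 and 10.3, 6.44 and 4.55 CPM (2.0 ± 0.42). All SYCE3-high sums of these genes were above all STRA8-positive sums. HOXD8, at 40.3 to 47.6 CPM in SYCE3-high sums, was then above HOXA3, HOXA7 and HOXB4 in every library. HOXC10 was at 4.44, 5.51 and 2.43 and 7.72, 9.21 and 8.05 CPM (1.17 ± 0.35), and without the recurring barcodes its log2 fold change was -0.17. HOXD11 was at 0.269, 0.918 and 1.33 and 0.858, 3.68 and 3.85 CPM (1.59 ± 0.50), with overlap. HOXC5 and HOXD4 rose by less than 2-fold (log2 fold changes of 0.61 ± 0.21 and 0.54 ± 0.17).

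The SYCE3-high sums are the shallowest, with 27, 27 and 56 barcodes and 1086355 to 2855487 UMIs. Of the 21 members called, 9 kept their call under every alternative that tested them. Among the genes that rose, HOXC5, HOXC10, HOXC11, HOXD4, HOXD8 and HOXD11 lost it under at least 1 alternative. Among those that fell, HOXA2, HOXA3, HOXB3, HOXB7, HOXC4 and HOXC13 did. Thinning each barcode to 10000 UMIs left 9 lower and 3 higher. With the SYCE3 gate at the top 10% there were 11 lower, among which no member was lower by at least 2-fold by edgeR, while 21 of the 34 had an unadjusted p under 0.05.

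Genes that work with or upstream of the HOX genes were read from 5 lists. Of the 9 TALE cofactors, the PBX, MEIS and PKNOX proteins that bind DNA with HOX proteins, 6 were higher and 1 lower in ungated than in POU5F1-high cells by edgeR (median log2 fold change 1.11), against 35.4% of all genes higher and 33.4% lower. MEIS1 was at 1.35, 1.77 and 1.27 CPM in POU5F1-high and 16.9, 13.2 and 18.6 CPM in ungated sums (3.03 ± 0.23), and PKNOX2 at 0, 0.161 and 0.762 and 2.94, 3.35 and 3.94 CPM (2.45 ± 0.47). Of the 6 CDX and ParaHox genes only 2 could be tested, and 1 rose: CDX2, a trunk factor that activates HOX genes, from 0, 0.323 and 0.169 to 2.05, 2.26 and 4.21 CPM (3.48 ± 0.53).

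Of 12 tested genes of retinoic acid metabolism and reception, 9 were higher and 2 lower in ungated cells by edgeR (median log2 fold change 1.41), against the same 35.4 and 33.4% of all genes. CRABP2, which carries retinoic acid to its receptors, was at 1.62, 2.74 and 3.13 CPM in POU5F1-high and 109, 94.6 and 54.4 CPM in ungated sums (4.30 ± 0.29). RARB, a receptor and itself a retinoic acid target, was at 4.86, 1.45 and 2.12 and 29.4, 25.97 and 25.1 CPM (2.92 ± 0.21). Both were higher again in STRA8-positive than in ungated cells, by 0.74 ± 0.17 and 0.65 ± 0.12 on the log2 scale. From STRA8-positive to SYCE3-high cells 8 of the 12 were lower and 1 was higher by edgeR (27.7% of all genes lower, 26.8% higher). CRABP2 fell by 1.33 and RARB fell by 1.29 on the log2 scale. ALDH1A2, which makes retinoic acid, had the largest change of the list and rose, from 0.808, 0.918 and 2.06 to 6.01, 10.1 and 11.9 CPM (2.61 ± 0.38), and was at 109 to 119.7 CPM in mouse barcodes, whose part in this was not tested. All of these differences passed the threshold of edgeR. The enzymes CYP26A1, CYP26B1 and CYP26C1, which degrade retinoic acid, were not among the feature symbols.

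Chromatin regulators moved in both directions. Of 18 tested Polycomb genes, 6 were higher and 7 lower in ungated than in POU5F1-high cells by edgeR (median log2 fold change 0.028), shares near the 35.4 and 33.4% of all genes. The largest differences were in PHC2, a subunit of the first Polycomb complex (15.4, 16.9 and 17.3 and 47.1, 49.3 and 49.8 CPM; 1.02 ± 0.10), and in CBX7, which reads the Polycomb mark (10.8, 10.97 and 14.7 and 9.65, 9.46 and 8.35 CPM; -0.97 ± 0.17). Of 10 trithorax, demethylase and insulator genes, 3 were higher and 6 lower (median -0.41), against 35.4 and 33.4% of all genes. ASH2L and WDR5, shared subunits of the trithorax-type methyltransferases, had log2 fold changes of -0.97 ± 0.08 and -0.97 ± 0.08. With library sizes alone in place of scaling factors, log2 values in this comparison shift upward by about the difference between the medians of all genes given above, which is the size of several of these changes.

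Mouse somatic barcodes used the clusters differently. Their 38 HOX genes summed to 496, 442 and 657 CPM, of which HOXC held 65.1, 73.6 and 72.8% and HOXD 25.7, 16.6 and 17.4%, and HOXA 5.39, 4.73 and 4.51% and HOXB 3.88, 5.06 and 5.32%. The 5 highest were HOXC8 (119, 121 and 187 CPM), HOXC6 (117, 106 and 162), HOXC9 (32.6, 43.1 and 48.6), HOXC4 (36.1, 35.7 and 50.7) and HOXD9 (37.0, 17.3 and 23.8). HOXC8 and HOXC6 overlapped over the libraries but both lay above all other members in every library. Mouse reads were counted on monkey genes, so a gene can be low because its mouse transcript does not match, and species and cell type cannot be told apart. No test was made between mouse and germ barcodes.

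Set against germ barcodes, 9 members were higher in mouse barcodes in all 3 libraries (17.9% of all features with a UMI in each library were) and 27 were lower (72.6%), both near the share in all features. The 9 were HOXC4, HOXC6, HOXC8, HOXC10, HOXD3, HOXD4, HOXD9, HOXD10 and HOXD11. HOXD10 was at 0.542, 0.411 and 0.626 CPM in germ and 29.4, 10.6 and 24.9 CPM in mouse barcodes, and HOXD11 at 0.414, 0.986 and 1.76 and 9.45, 5.41 and 10.98 CPM. The germ and mouse ranges of both were far apart. The 2 without one direction over the libraries were HOXA6 and HOXD8. Germ cell genes were present in mouse barcodes at 1.36 to 12.9% of their germ level (DAZL, DDX4, SYCP3, SYCE3 and POU5F1), and 16 HOX genes were above all 5 of these shares in every library. For the other 22, among them HOXA2 to HOXA5 and the 9 HOXB genes other than HOXB7, the mouse level was not above that background in each library and is not read as expression.

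Within the mouse cells, 13 clusters were made with the HOX genes left out and named from marker genes. They gave 2168 supporting-like barcodes (INHA and AMHR2), 1392 stromal-like (COL3A1 and TCF21), 259 mesothelial-like (a name that rests on WT1, BNC1 and KRT19), 63 epithelial-like and 217 unnamed. These markers were not exclusive. WNT4, on the supporting list, was at 591 to 1003 CPM in stromal-like and 485 to 637 CPM in supporting-like clusters. IRX3, LHX9 and RSPO1, also on it, were highest in the mesothelial-like cluster (425, 500 and 33.8 CPM). AMHR2 was at 381 CPM there, and COL3A1 at 1128 CPM, above the lowest stromal-like cluster (948 CPM). INHA was at 638 CPM in epithelial-like barcodes, above the lowest supporting-like cluster (338 CPM). Of the other mesothelial markers, MSLN was at 0, LRRN4 at 0.993 and PODXL at 5.46 CPM in the mesothelial-like cluster, PODXL lower than in an unnamed one (7.91 CPM), and UPK3B and LGALS7 were not among the features. In stromal-like barcodes COL3A1 was at 1542, 1664 and 2057 CPM and INHA at 22.9, 44.2 and 14.9 CPM, and in supporting-like barcodes at 21.5, 18.9 and 51.3 and 2577, 2098 and 2078 CPM. Of the 38 HOX genes, 22 were higher in every stromal-like sum than in every supporting-like sum and 16 overlapped, and none was higher throughout in supporting-like sums. The share over all features was not taken for these counts, so they are not read as a result about HOX genes. Of the 16 genes above the background of germ genes in mouse barcodes, 13 were higher in stromal-like sums, against 14.7% of all features above that background, and 0 in supporting-like sums, against 26.1%. A gene could pass that background through its stromal-like level alone, because the pooled mouse barcodes were used for it. The other 9 of the 22 are not read as expression. These are descriptions of clusters without a test.

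HOXD9 to HOXD11, HOXA9, HOXA10 and HOXC10 were among the 13. HOXD10 was at 86.6, 47.6 and 76.7 CPM in stromal-like and 4.82, 1.20 and 2.50 CPM in supporting-like sums. HOXD11 was at 30.1, 25.0 and 42.7 and 0.689, 0 and 0.470 CPM. HOXD9 was at 95.8, 78.3 and 65.1 and 8.96, 5.11 and 7.98 CPM. HOXD10 was also among the genes that led a stromal-like cluster, although it had no part in making it. HOXA9 and HOXA10 were at 14.3, 13.6 and 25.3 and 17.3, 18.2 and 19.5 CPM in stromal-like sums, and at 1.10, 1.80 and 0.313 and 0.276, 0.301 and 0.313 CPM in supporting-like ones. HOXC10 was at 33.3, 49.9 and 46.0 and 4.14, 9.92 and 16.1 CPM. HOXA9 and HOXA10 in mouse barcodes thus came mostly from the stromal-like cells.

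HOXC8 was distributed otherwise. It was at 121, 105 and 177 CPM in supporting-like, 98.8, 166 and 123 CPM in stromal-like and 433, 294 and 372 CPM in mesothelial-like sums. Of these classes the mesothelial-like one was highest in each library. The supporting-like clusters ranged from 74.8 to 310 CPM with the libraries pooled, and the highest of them (256 barcodes) lay within the mesothelial-like range. HOXC6 was at 90.3, 84.5 and 139.9, 170.2, 212 and 181 and 209, 192 and 232 CPM in these classes, higher in the last pair than in the supporting-like sums. The supporting-like cluster of 256 barcodes was at 191 CPM of HOXC6. HOXC9, at 0, 3.16 and 0 CPM in epithelial-like and 24.5, 40.6 and 48.8 CPM in supporting-like sums, was nearly absent from the epithelial-like cells, of which there were only 7, 40 and 16. HOXB7 was at 4.55, 9.32 and 12.4 CPM in supporting-like and 3.87, 5.67 and 2.49 CPM in stromal-like sums and overlapped.

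**Figure D4:**
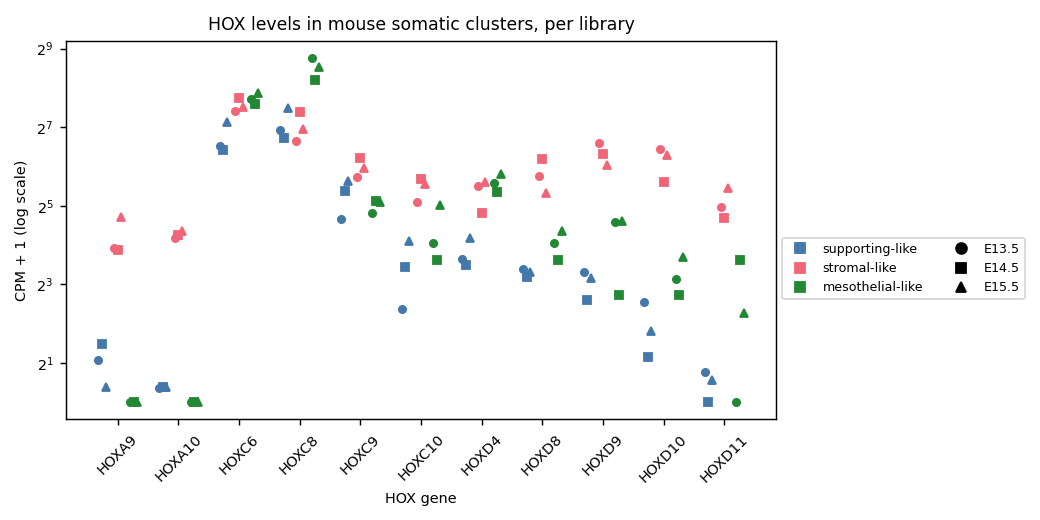
Level of 11 HOX genes, chosen after their values were seen, in supporting-like, stromal-like and mesothelial-like mouse barcodes (colours) of each library (symbols), as CPM + 1 on a log scale. Stromal-like sums of HOXD9, HOXD10 and HOXD11 lie above all supporting-like sums, and HOXC8 is highest in mesothelial-like sums (294 to 433 CPM).

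Across the 3 mouse stages, HOX levels in germ cells differed little. None of the 28 HOX genes with at least 5 CPM in 1 library of a pair differed 2-fold or more between any pair of libraries, where few other genes did (E14.5 over E13.5, 0.453% of all genes higher and 0.496% lower; E15.5 over E13.5, 0.288% and 0.508%; E15.5 over E14.5, 0.332% and 0.298%). The summed level was 768, 689 and 677 CPM. In mouse barcodes 7 genes passed this size rule in at least 1 pair. From E13.5 to E14.5, HOXB7 was higher (2.63% of all genes) and HOXD9 and HOXD10 lower (4.57%). From E13.5 to E15.5, HOXB7 was higher (2.22% of all genes, with 2.43% lower), and from E14.5 to E15.5 HOXD4, HOXD10 and HOXD11 (6.33% of all genes, with 3.07% lower). HOXB3 and HOXB4 also passed it, but their mouse levels are not read as expression. HOXD10 was at 29.4, 10.6 and 24.9 CPM over the stages and was lowest in E14.5, where stromal-like cells made up 186 of 717 mouse barcodes against 614 of 1643 and 592 of 1739. The part of this share in the result was not tested. Each stage had 1 library, so stage and library cannot be told apart.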

How the data were processed

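The deposited files hold whole-number UMI counts per monkey gene and called barcode, made by the authors with Cell Ranger (version 6.0.1, per the file headers). Their genome build is not given in the sources used here. Members and gene lists were chosen with earlier results of these data known. Barcodes were gated as described, 1542 of 7827 were left out, no doublets were removed, and 2 barcodes over several gates were dropped.

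UMI counts were summed per library and germ group (12 sums, 6 residual degrees of freedom) and tested in R 4.3.3 with edgeR 4.0.16 (which calls limma 3.58.1): filterByExpr, TMM, a quasi-likelihood fit blocked by library, and p-values adjusted by Benjamini-Hochberg over all 15338 genes, at 0.05. The libraries served as repeats although they differ in mouse stage. The fit was also run on simulated counts with known changes, drawn with the same dispersion for all genes and no library effect. DESeq2 1.42.0, other factors and filters, other gates, thinning and leaving out each library were alternatives. Dropping recurring barcodes, dropping a mouse cluster and using no factors were added after the data were seen. Mouse barcodes were clustered with scanpy 1.11.5 (2000 variable genes, 30 components, 15 neighbours, Leiden resolution 1). Figures were drawn with matplotlib 3.10.9. Intervals are exact 95% Poisson or binomial intervals and cover counting error only.

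Genes named with values per library were the 5 highest HOX genes in germ and in mouse barcodes, every HOX gene called with a log2 fold change of at least 1 in either direction, and from each list the 2 genes of largest change between POU5F1-high and ungated cells; other HOX genes were added where a statement needed them, and 1 HOX gene is not reported here. The RefSeq gene table of a telomere-to-telomere cynomolgus assembly gave which gene models overlap.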

Additional observations from a re-analysis of the deposited data

How the results depend on the processing

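The 29 HOX genes higher in ungated than in POU5F1-high cells became 24 to 33 over all alternatives run. The 2 lower became 1 with library sizes alone, with the POU5F1 gate at 1000 CPM and without recurring barcodes, 0 with thinning, and 1 to 2 leaving out 1 library. HOXA11 there reversed to 0.0023 with library sizes alone and 0.21 with the higher POU5F1 gate. For STRA8-positive cells the 5 higher became 3 with DESeq2, 1 with no library block, and 1 to 5 leaving out 1 library. The 2 lower became 1 with DESeq2, with its size factors, with library sizes alone, with no library block, with 2 to 10% mitochondrial UMIs, with thinning and without recurring barcodes, 0 with the STRA8 gate at 100 CPM, and 0 to 2 leaving out 1 library. For SYCE3-high cells the 7 higher became 3 with thinning, 1 without recurring barcodes and 3 to 7 leaving out 1 library, and the 14 lower became 9 with thinning. HOXC10 there reversed to -0.17 without recurring barcodes. The causes were not tested, except that thinning and leaving out barcodes leave fewer counts.

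The summed germ HOX level became 609 CPM without recurring barcodes. HOX genes past 2-fold between germ libraries became 4 with no minimum level, and the 7 in mouse barcodes became 14 with no minimum, 3 with at least 20 CPM and 4 with CPM + 1. The 22 genes higher in stromal-like barcodes became 21 and 22 at Leiden resolutions of 0.5 and 2. The germ groups were paired by library through the library block of the fit, whereas stages could not be paired. Each stage has 1 library, the smallest sum (SYCE3-high, E14.5) holds 1086355 UMIs, and HOXB1, HOXC12, HOXD10 and HOXD13 were removed by the filter on low counts; without it all 38 were tested, 33 higher and 2 lower in ungated cells.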

Other observations

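An unnamed mouse cluster of 56 barcodes, led by genes such as CCNA1 and TYROBP, held 133 CPM of DAZL, more than any other mouse cluster. The summed mouse HOX level was 532 CPM with it and 530 CPM without it.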
